A study of Mus musculus with 78 samples.

Results

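The genes described here are 10 of the protein-coding genes of the mouse mitochondrial chromosome: mt-Nd1, mt-Nd2, mt-Nd4, mt-Nd5, mt-Nd6, mt-Co1, mt-Co2, mt-Co3, mt-Atp6 and mt-Cytb. They were chosen by name, and all 10 were found among the 55367 gene symbols of both deposited count tables. The tables hold 37 genes of this chromosome, and its annotation has 13 protein-coding, 22 tRNA and 2 rRNA genes. The libraries came from 7 brain regions of 12 mice on the C57BL/6J strain, 6 male and 6 female, with 3 mice for each sex and genotype. Knockout (KO) mice carried a constitutive CRISPR/Cas9 deletion spanning exons 3 to 7 of Acss2, which encodes an acetyl-CoA synthetase of the cytosol and nucleus, and were compared with wild-type (WT) mice. Among males, 1, 2 and 10 were KO and 3, 12 and 13 were WT by mouse number. Among females, 4, 5 and 6 carried the deletion while 11, 23 and 24 did not. All of them, WT mice included, were single-housed adults that drank 15% ethanol by choice in a limited-access schedule in the dark. Sessions lasted 2 h on days 1 to 3 and 4 h on day 4, first with water beside the ethanol and in the following week with ethanol alone. No ethanol-free mice were analysed here, so each value belongs to mice that had been drinking.

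The mitochondrial chromosome is transcribed on both strands into long precursors, which are cut at the tRNAs that lie between the other genes. Its proteins are core subunits of the respiratory chain, which supplies most of the ATP that neurons use for ion pumping and transmitter release. The mt-Nd genes encode subunits of complex I (NADH dehydrogenase), mt-Cytb the cytochrome b of complex III, the mt-Co genes subunits of complex IV (cytochrome c oxidase), and mt-Atp6 a subunit of ATP synthase. Of the genes listed, mt-Nd6 is read from the strand opposite to the others. Stretches of mitochondrial DNA have also been copied into the nuclear genome, and reads from either place can look the same.

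There were 78 libraries in 28 groups of region, sex and genotype: 23 groups of 3, 4 groups of 2 and 1 group of 1. Amygdala, dorsal hippocampus, dorsal striatum and ventral striatum (47 libraries) had total counts of 4454420 to 14487778. Cortex, ventral hippocampus and prefrontal cortex (31 libraries) had 629635 to 1228828. Library numbers in the labels restart between these sets. Region, depth and set cannot be told apart between them, and regions were compared only within a set. Within a set the numbers run region by region, so region and place in the numbering cannot be told apart either. The floor of 3 counts corresponds to 0.207 to 0.673 CPM (counts scaled to the library total) in the deeper set and to 2.44 to 4.76 CPM in the shallower one. Acss2 checked the genotype labels, with 7.01 ± 2.52 CPM over 40 KO libraries, 53.05 ± 9.47 CPM over 38 of WT mice (SD) and no overlap.

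Some libraries go against their labels, by limits chosen after the data had been seen. One from prefrontal cortex, given as mouse 23 (female, WT), had 0 counts of the X-inactivation RNA Xist and 60 counts of the Y-linked gene Ddx3y. In 9 other cases the region is in doubt by the summed level of 9 markers of striatal projection neurons (among them the dopamine receptor genes Drd1 and Drd2 and the adenosine receptor gene Adora2a), set against a limit of 1000 CPM. A dorsal striatum library (female WT 23) had 266 CPM of these markers, another (male KO 10) 447 CPM, and a ventral striatum library (male WT 13) 477 CPM. The other 21 striatal libraries had 1085 to 9420 CPM. Amygdala libraries female KO 6, female WT 24 and male KO 2 exceeded the limit with 2302, 1012 and 1076 CPM. So did the ventral hippocampus library female KO 6 (4180 CPM) and the prefrontal cortex libraries male KO 1 (1434 CPM) and female KO 5 (2134 CPM). All libraries were kept under their labels, and the counts of calls were repeated without the ones named here. Markers of cortical neurons set no limit. Their sum was 697 CPM in amygdala library female WT 23, against 139.8 to 306.5 CPM in the other amygdala libraries. It was 523.6 CPM in ventral striatum library male KO 10, against 126.6 to 263.2 CPM in the others of that region. Neither library was left out on this ground.

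The sequences below show how much of some of the 10 genes also occurs in nuclear copies. A block of chromosome 1 on the minus strand of GRCm38, chr1:24611535-24616197, holds 6 unprocessed pseudogenes that copy neighbouring mitochondrial genes: Gm28439 (mt-Nd4), Gm28438 (mt-Nd3), Gm28437 (mt-Co3), Gm10925 (mt-Atp6), Gm28661 (mt-Co2) and Gm29216 (mt-Co1). Transcript sequences are those of GENCODE release M21 on GRCm38, printed 5′ to 3′. The first lines give the 3′ ends of mt-Co2, mt-Atp6 and mt-Co3, each above its nuclear copy. Capitals mark the bases that the copy lacks.
mt-Co2: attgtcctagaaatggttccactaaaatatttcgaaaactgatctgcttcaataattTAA
Gm28661: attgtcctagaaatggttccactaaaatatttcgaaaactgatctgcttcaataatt
mt-Atp6: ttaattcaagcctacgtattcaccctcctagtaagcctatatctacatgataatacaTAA
Gm10925: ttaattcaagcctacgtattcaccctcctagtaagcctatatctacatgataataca
mt-Co3: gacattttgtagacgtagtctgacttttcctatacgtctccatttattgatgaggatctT
Gm28437: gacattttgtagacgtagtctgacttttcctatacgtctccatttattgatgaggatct
Gm28661 matched mt-Co2 (chrM:7013-7696) at 681 of 681 aligned bases out of its 684. Gm10925 matched mt-Atp6 (chrM:7927-8607) at 678 of 678 bases out of 681, and Gm28437 matched mt-Co3 (chrM:8607-9390) at 783 of 783 out of 784. In mt-Nd4 and mt-Co1 the copy covers only one end of the gene. The next lines show bases 837 to 916 of mt-Nd4 (chrM:10167-11544) above the end of Gm28439, with capitals for what lies past the copy.
mt-Nd4: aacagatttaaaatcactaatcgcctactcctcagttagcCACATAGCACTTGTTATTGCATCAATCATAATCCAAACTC
Gm28439: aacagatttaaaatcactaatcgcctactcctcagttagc
The identical stretch was 876 of the 1378 bases of mt-Nd4. For mt-Co1 (chrM:5328-6872) the lines show bases 1054 to 1114 above the start of Gm29216, and the capital marks the mismatch inside the aligned stretch, written A1066T with positions counted from 1 at the 5′ end of the mt-Co1 transcript. The first 9 bases shown lie before the aligned stretch.
mt-Co1: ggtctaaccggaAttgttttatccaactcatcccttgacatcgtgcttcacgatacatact
Gm29216: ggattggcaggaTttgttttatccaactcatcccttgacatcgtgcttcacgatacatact
Here 482 of 483 aligned bases of the 1545-base gene were identical. The last pair are the 3′ ends of mt-Nd5 (chrM:11742-13565, plus strand) and mt-Nd6 (chrM:13552-14070, minus strand), which overlap by 14 bases in opposite directions. Capitals mark these bases, and each line is read on its own strand.
mt-Nd5: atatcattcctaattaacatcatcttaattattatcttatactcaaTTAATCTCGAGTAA
mt-Nd6: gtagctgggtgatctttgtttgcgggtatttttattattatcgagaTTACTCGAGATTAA

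As a measure of how much of each gene a read could tell apart, every 50-base window of a gene was searched in all other annotated transcripts. No window was shared for mt-Nd1, mt-Nd6 or mt-Cytb (chrM:14145-15288). The shared percentage was 8.19% for mt-Nd2 (chrM:3914-4951), 7.61% for mt-Nd5, 51.1% for mt-Co1 and 62.2% for mt-Nd4. It reached 99.5% for mt-Atp6, 99.9% for mt-Co3 and 100% for mt-Co2. The search covered annotated transcripts and not the whole nuclear genome.

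The 3 genes with the most shared windows had the fewest counts, but the order did not hold otherwise, since mt-Nd6 shared none and was far below mt-Co1. Outside the 10 genes, mt-Atp8 averaged 0.0625 CPM, with 0 counts in 62 of 78 libraries, and no shared window was found for it. It starts between mt-Co2 and mt-Atp6, however, and the stretch between their copies Gm28661 and Gm10925 lies in none of the listed pseudogenes. The search of annotated transcripts may not have covered that stretch, so whether mt-Atp8 has a nuclear copy there is not known. Among complex IV genes, mt-Co1 took 5246500 counts over all libraries, 33.6% of the counts of the 10 genes, while mt-Co2 took 675 and mt-Co3 540. Per kilobase of gene, which is the scale used here to compare genes, mt-Co1 averaged 9928 CPM per kb over 78 libraries, mt-Co2 2.82 and mt-Co3 1.84. The ATP synthase gene mt-Atp6 stood with the low ones at 2.54 CPM per kb and 549 counts. These last 3 genes, which a nuclear copy matches except for their last bases, had 0 counts in 8 (mt-Co2), 11 (mt-Co3) and 5 (mt-Atp6) libraries. The complex III gene mt-Cytb averaged 7919 CPM per kb. Complex I genes averaged 6426 (mt-Nd1), 4656 (mt-Nd2), 3124 (mt-Nd5), 2682 (mt-Nd4) and 207 (mt-Nd6) CPM per kb. Levels fell into 3 tiers, with 6 abundant genes, mt-Nd6 below them and 3 genes near the floor. Over the median library mt-Co1 was the most counted gene of all, and mt-Nd6 ranked 3168. How reads that fit both places equally well were counted is not given in the sources used here, and its part in the low levels was not tested.

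**Figure D1:**
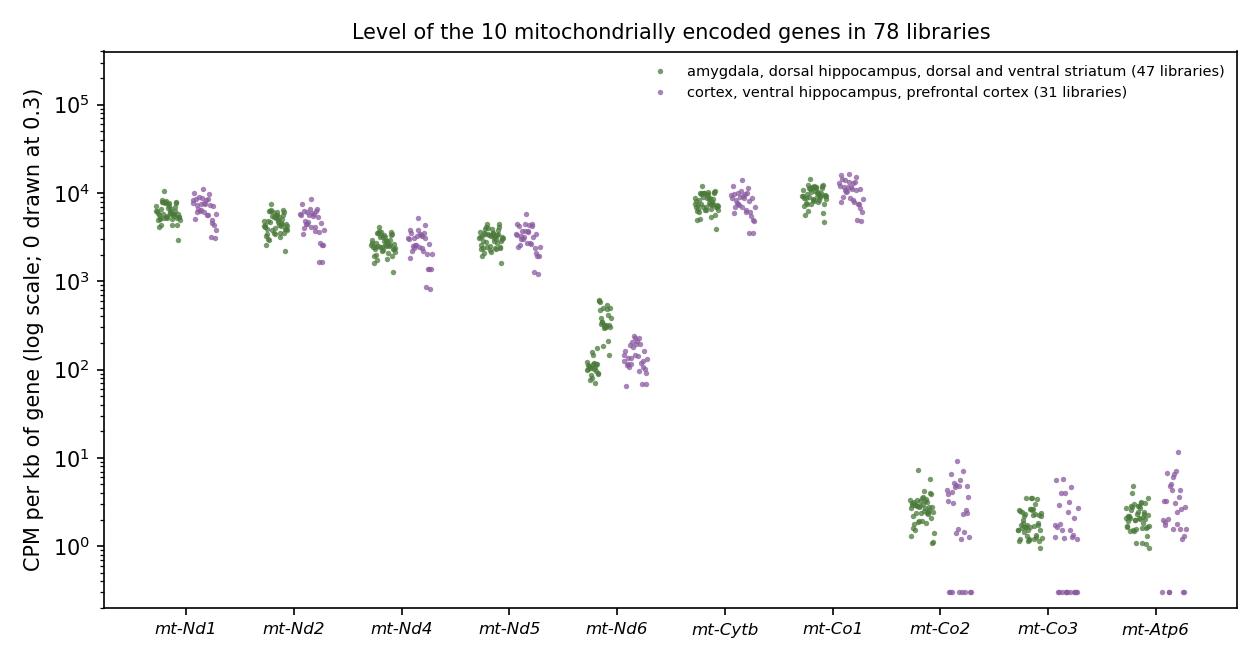
Level of each gene in each of the 78 libraries, in CPM per kb of gene on a log axis, with 1 point per library, green for the deeper set of regions and purple for the shallower one; counts of 0 are drawn at 0.3. The 6 most counted genes lie at the top, mt-Nd6 between them and the 3 genes that nuclear copies match almost whole, and the mt-Nd6 points of the deeper set form an upper and a lower cloud.

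The nuclear copies themselves were counted at very different levels in the 2 sets of regions. Their summed level was 10.3 ± 3.07 CPM in the 47 libraries of the deeper set and 554 ± 186 CPM in the 31 libraries of the shallower set (SD). Ranges were 5.55 to 24.2 and 239.8 to 931 CPM, so no library of one set reached the other. Per 1000 counts of mt-Co1 the copies took 0.709 ± 0.150 counts in the deeper set and 33.5 ± 3.02 in the shallower set. Within each set this ratio was steady across regions, at 0.631 to 0.809 in the 4 deeper regions and 31.5 to 34.7 in the 3 shallower ones. The 3 mitochondrial genes that the copies match did not show the same gap, with a sum of 4.94 ± 1.44 CPM in the deeper set and 5.35 ± 3.22 CPM in the shallower set. Set, region and depth cannot be told apart in this difference, which was not tested.

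**Figure D2:**
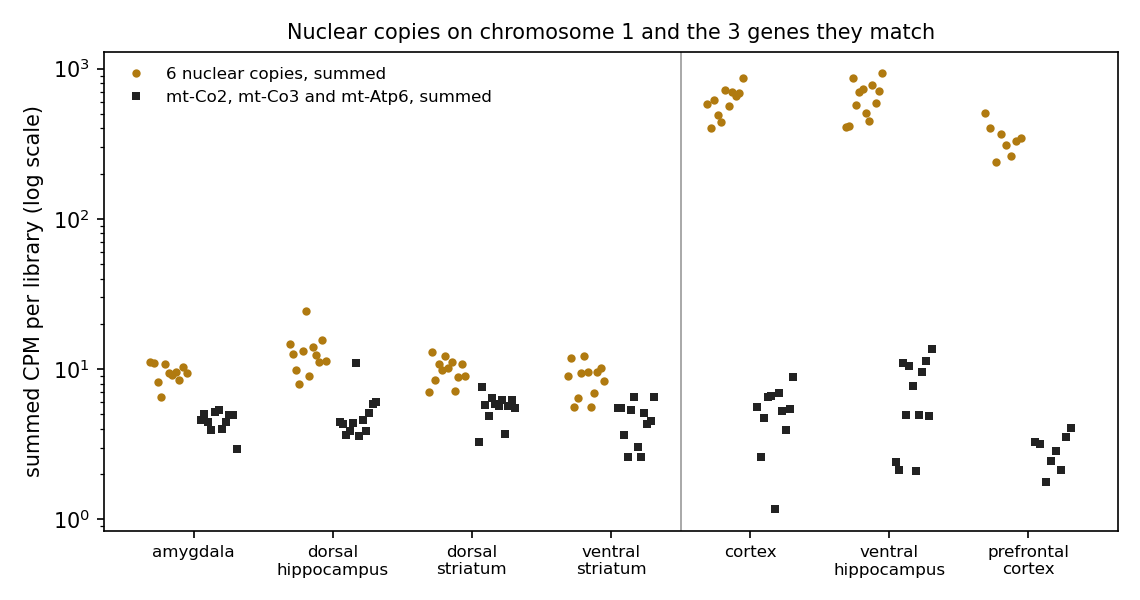
Summed CPM of the 6 nuclear copies (gold circles) and of mt-Co2, mt-Co3 and mt-Atp6 (black squares) in each library, by region, on a log axis; the line separates the sets of regions. The copies sit between 5.55 and 24.2 CPM in the 4 regions on the left and between 239.8 and 931 CPM in the 3 on the right, while the black squares overlap across the line.

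The summed share of the 10 genes in the total counts was between 1.95% and 7.88%. In the deeper set the mean share was 3.82% ± 0.716 in amygdala (n = 11), 4.24% ± 1.05 in ventral striatum, 4.54% ± 0.685 in dorsal striatum and 4.84% ± 1.05 in dorsal hippocampus (SD, n = 12 each). In the shallower set it was 3.08% ± 0.971 in prefrontal cortex (n = 8), 5.05% ± 1.02 in cortex (n = 11) and 5.38% ± 1.24 in ventral hippocampus (n = 12). Library ranges overlapped between all regions of a set. In bulk tissue, fewer cells of a type rich in mitochondrial RNA and less of that RNA per cell cannot be told apart.

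In the deeper set the gene with the largest differences between regions among the 10 was mt-Nd6. It had 95.1 to 318.2 CPM in the 12 dorsal striatum libraries (median 188.9) and 75.7 to 277 CPM in the 12 ventral striatum libraries (median 165.5). The 11 amygdala libraries had 39.9 to 82.6 CPM (median 54.8) and the 12 dorsal hippocampus libraries 36.9 to 91.5 CPM (median 57.5). Striatal libraries thus lay above the other 2 regions, with a narrow overlap at the edge. Against the mean of the other 3 regions, mt-Nd6 was higher by 1.35 ± 0.12 on the log2 scale (SE) in dorsal striatum (adjusted p 8.856e-12) and by 1.02 ± 0.12 in ventral striatum (adjusted p 1.862e-08). It was lower in amygdala, at -1.27 ± 0.15 (adjusted p 2.015e-09), and in dorsal hippocampus, at -1.09 ± 0.14 (adjusted p 1.021e-08). Since each region is set against the others of its set, these differences are tied to one another and are not separate results. These and all other adjusted p-values come from edgeR's quasi-likelihood test with Benjamini-Hochberg adjustment over all genes tested, and a gene is called where its value is under 0.05. Leaving out any mouse, or changing any other setting tried, kept these 4 calls, with log2 differences of 1.28 to 1.46 in dorsal and 0.942 to 1.099 in ventral striatum.

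The overlapping neighbour gives a reference within each library. Per 1000 counts of mt-Nd5, which is read toward mt-Nd6 from the other strand, mt-Nd6 took 38.01 ± 11.9 counts in dorsal striatum, 31.8 ± 8.20 in ventral striatum, 10.8 ± 1.31 in amygdala and 10.4 ± 4.14 in dorsal hippocampus (SD). The 24 striatal libraries ranged from 21.7 to 61.6 and the other 23 from 6.73 to 22.4. A single dorsal hippocampus library (male WT 3, 22.4) crossed into the striatal range, at the library male KO 10 of dorsal striatum (21.7). In the same fits mt-Nd5 differed by 0.02 ± 0.10 in dorsal and 0.00 ± 0.10 in ventral striatum, and neither was called. The tRNA gene next to mt-Nd6 on its strand, mt-Te (chrM:14071-14139), was called higher in both, by 1.68 ± 0.27 in dorsal (adjusted p 1.954e-06) and 1.81 ± 0.27 in ventral striatum (adjusted p 9.16e-07). These are few reads, with a median of 16 counts of mt-Te per library in dorsal and 12 in ventral striatum. The median was 3 in amygdala and 3 in dorsal hippocampus. Another tRNA gene of that strand, mt-Tq, was called higher too, by 0.72 ± 0.18 and 0.50 ± 0.18. The kit that the labels name keeps no record of strand, so RNA of mt-Nd6 and RNA of the opposite strand cannot be told apart in these counts.

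The libraries whose striatal markers go against the label give mt-Nd6 apart from the marker level. They do not give it apart from the library numbers, which run with the labelled region, and neither relation was tested. The dorsal striatum libraries with the fewest striatal markers, female WT 23 and male KO 10, had 26.8 and 21.7 mt-Nd6 counts per 1000 of mt-Nd5, and 534 and 641 CPM of 6 markers of cortical neurons. The ventral striatum library with the fewest, male WT 13, had 34.7. All 3 lay above every amygdala library, whose highest value was 13.2. The 3 amygdala libraries over 1000 CPM of striatal markers had 9.34 to 13.2, within the range of the other amygdala libraries, and the ventral hippocampus library with 4180 CPM had 11.9. The lowest striatal value was that of male KO 10. Of the prefrontal cortex libraries over the limit, male KO 1 had 21.8, the highest of that region and level with the lowest striatal library, and female KO 5 had 12.8. The other prefrontal cortex libraries had 10.3 to 16.9. Without the libraries in doubt the mt-Nd6 difference was 1.46 in dorsal and 0.98 in ventral striatum.

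**Figure D3:**
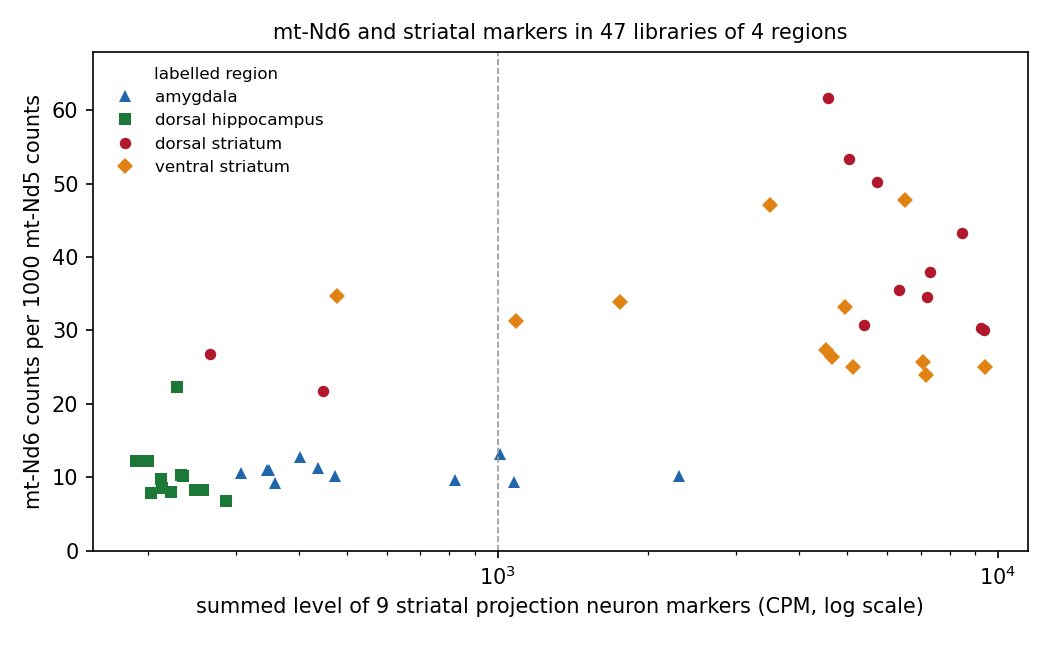
Counts of mt-Nd6 per 1000 counts of mt-Nd5 against the summed CPM of 9 striatal projection neuron markers (log axis) in the 47 libraries of 4 regions, with 1 point per library and the dashed line at 1000 CPM. Striatal libraries left of the line have at least 21.7 on the vertical axis, and amygdala libraries right of it have at most 13.2.

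In dorsal striatum, 2 of the 10 genes were called, both higher, while 49.1% of all genes tested were called in either direction. The other call was mt-Co3, at 1.93 ± 0.550 CPM against 1.36 to 1.43 CPM in the other 3 regions, a log2 difference of 0.46 ± 0.15 (adjusted p 0.0095) on 6 to 26 counts per library. Its nuclear copy Gm28437 matches nearly the whole gene, so the source of these few reads is uncertain. In ventral striatum mt-Nd6 was the single call, against 41.7% of all genes. The other genes there had log2 differences from -0.23 (mt-Atp6) to 0.00 (mt-Nd5). Of these, 1 (mt-Nd1) had an unadjusted p under 0.05 (edgeR), beside 7150 of all 14593 genes tested.

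Amygdala and dorsal hippocampus went opposite ways for the abundant genes. Each is part of the mean that the other was set against, so their differences are not separate results. In amygdala 5 genes were called, all lower, against 49.5% of all genes. Besides mt-Nd6 these were mt-Nd2 (-0.35 ± 0.10, adjusted p 0.00338), mt-Nd4 (-0.27 ± 0.10), mt-Co1 (-0.27 ± 0.09) and mt-Cytb (-0.24 ± 0.09). Without mouse 1 the count fell to 2. In dorsal hippocampus 6 genes were called, against 52.6% of all genes. Apart from the lower mt-Nd6, 5 were higher: mt-Nd1 (0.34 ± 0.09, adjusted p 0.00133), mt-Nd2 (0.32 ± 0.09), mt-Nd4 (0.33 ± 0.09), mt-Cytb (0.27 ± 0.09) and mt-Co1 (0.23 ± 0.09, adjusted p 0.0301). Of these, mt-Co1 lost its call in 6 of 18 alternatives and mt-Nd1, mt-Nd2 and mt-Nd4 in none. Both shares lie near the background of all genes, and the regions differed at many genes of other kinds. Of 75 nuclear genes of the respiratory chain, 33 were called higher and 4 lower in dorsal hippocampus, and 14 higher and 24 lower in amygdala. Cell markers moved as well, since all 11 oligodendrocyte markers were called lower in amygdala, and 5 of 7 astrocyte markers were called higher in dorsal hippocampus. Their part in these differences was not tested.

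**Figure D4:**
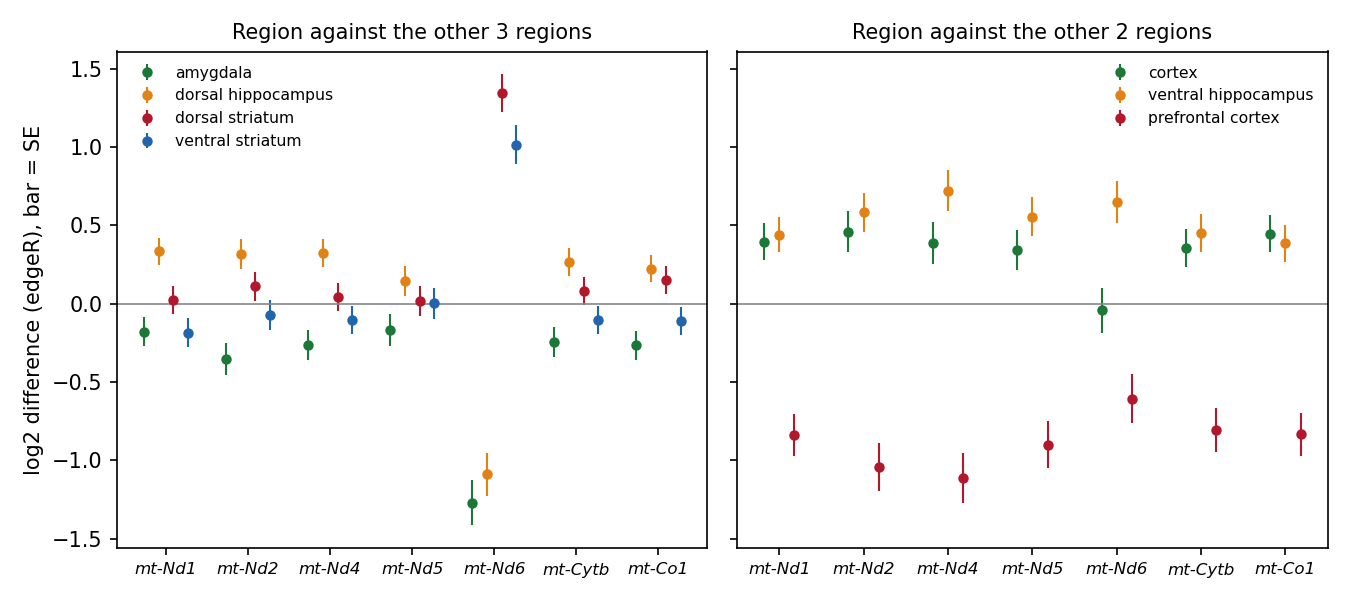
Log2 difference of each of the 7 better counted genes in a region against the mean of the other regions of its set (points) with its standard error (bars), from edgeR, on the left for the 4 deeper regions and on the right for the 3 shallower ones. In the left panel mt-Nd6 stands alone above 1 in both striatal regions and below -1 in the others, and in the right panel all 7 genes are lower in prefrontal cortex.

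In the shallower set, mt-Co2, mt-Co3 and mt-Atp6 had too few counts to be tested, which left 7 genes. All 7 were lower in prefrontal cortex than in cortex and ventral hippocampus, against 36.6% of all genes called there. The complex I genes fell by 1.11 ± 0.16 (mt-Nd4, adjusted p 2.054e-06), 1.04 ± 0.15 (mt-Nd2), 0.90 ± 0.15 (mt-Nd5), 0.84 ± 0.14 (mt-Nd1) and 0.61 ± 0.16 (mt-Nd6, adjusted p 0.00248) on the log2 scale. The complex IV gene mt-Co1 fell by 0.83 ± 0.14 and the complex III gene mt-Cytb by 0.81 ± 0.14. In CPM, mt-Co1 was 11094 ± 3179 in prefrontal cortex (n = 8), 18225 ± 3687 in cortex (n = 11) and 18275 ± 4127 in ventral hippocampus (n = 12, SD). The lowest prefrontal cortex libraries were male KO 1 (7522 CPM) and female KO 4 (7684 CPM), and the highest, female WT 11 (17279 CPM), lay inside the ranges of the other regions. The proportion between genes shifted too, since mt-Nd4 took 47.8 ± 7.48 counts per 100 of mt-Nd1 in prefrontal cortex, 54.2 ± 3.74 in cortex and 61.8 ± 3.39 in ventral hippocampus (SD).

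Nuclear genes of the same pathway were lower as well. Of 74 respiratory chain genes tested, 70 were called lower in prefrontal cortex and 0 higher (median -0.55, beside 0.01 over all genes tested). The mitochondrial rRNA genes and the nuclear copies moved with them, with mt-Rnr1 and mt-Rnr2 called lower and 6 of 6 copies called lower (median -0.98). The 7 calls held without the libraries in doubt and without the one from mouse 23 that goes against its sex label. In ventral hippocampus all 7 genes were called higher, by 0.39 ± 0.12 (mt-Co1) to 0.72 ± 0.13 (mt-Nd4, adjusted p 5.888e-05), against 26.3% of all genes. In cortex 6 were called higher, by 0.34 ± 0.13 (mt-Nd5) to 0.46 ± 0.13 (mt-Nd2, adjusted p 0.00506), against 38.4%, and mt-Nd6 was not (-0.04 ± 0.14). Of the nuclear respiratory chain genes, 66 of 74 were called higher in cortex (median 0.43) and 16 of 74 in ventral hippocampus (median 0.13). For both regions the mean set against them includes prefrontal cortex, so the higher calls are not separate from the lower ones there. Cortex and ventral hippocampus were not tested against each other alone. With the mouse as a block the mt-Nd5 difference in cortex was 0.35 and no longer called. Without mouse 3 or mouse 24 the cortex count fell to 3.

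Loss of ACSS2, the question of the series, was compared within each region, in both sexes together and in each sex. None of the 10 genes was called in any of the 20 comparisons by edgeR, over 167 tests of a gene, of which 15 had an unadjusted p under 0.05. These 15 fell in 5 of the comparisons, and tests of genes that rise and fall together are not separate observations. Over all genes tested, such counts ran from 234 of 14523 (dorsal striatum, both sexes) to 1341 of 13623 (male ventral striatum). With the DESeq2 Wald test 1 of the 20 comparisons had calls, the male dorsal hippocampus. Few genes of any kind were called. Even the deleted gene Acss2 was missed in the female amygdala (log2 difference -2.85, adjusted p 0.982) and female ventral striatum (-2.67, adjusted p 0.801, edgeR). It was also not called in the male ventral striatum or in the dorsal striatum of either sex alone. The lack of a call within a sex thus does not show that a gene was unchanged. With both sexes the shares of all genes called were 0.00657% in amygdala, 0.00690% in dorsal hippocampus, 0.00689% in dorsal striatum, 0.00708% in ventral striatum, 0.00947% in cortex, 0.00929% in ventral hippocampus and 0.101% in prefrontal cortex. In males they were 0.00706% in amygdala, 0.00721% in dorsal hippocampus, 0.0103% in cortex, 0.00996% in ventral hippocampus and 0% in both striatal regions. In females they were 0.00707% in dorsal hippocampus, 0.0398% in cortex, 0.00993% in ventral hippocampus, 0.425% in prefrontal cortex and 0% in amygdala and both striatal regions. Males had 1 KO library of prefrontal cortex, which gives values but no test. None of the 34 genes of mitochondrial transcription and RNA handling, such as the polymerase gene Polrmt and the DNA-packaging gene Tfam, nor of the 76 nuclear respiratory chain genes, was called in these comparisons.

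**Figure D5:**
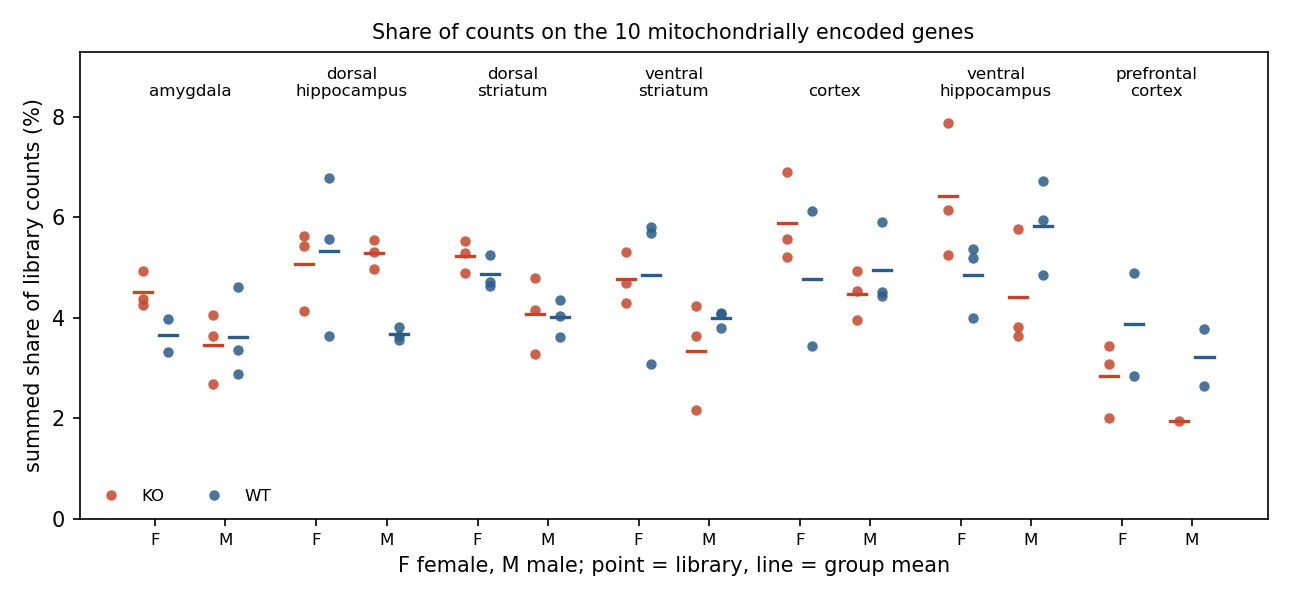
Summed share of library counts on the 10 genes (percent, from 0) in each library by region, sex (F female, M male) and genotype (red KO, blue WT), with lines at group means. In the male dorsal hippocampus the 3 KO points lie above the 3 WT points, and in most other groups the colours overlap.

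Among the comparisons tested, the smallest unadjusted p-values of the 10 genes were in the male dorsal hippocampus. There the share of the 10 genes was 4.98%, 5.55% and 5.31% in KO mice 1, 2 and 10, and 3.64%, 3.82% and 3.56% in WT mice 3, 12 and 13. Every KO library was above every WT library, as it was for 6 of the genes taken singly (mt-Nd1, mt-Nd2, mt-Nd4, mt-Nd5, mt-Co1 and mt-Cytb). Those 6 rise and fall together and are not separate observations, and how many of all genes had groups apart was not counted. The complex I gene mt-Nd5 had 6332, 7306 and 6141 CPM in KO and 4092, 4560 and 3921 CPM in WT mice, in the same order. Its log2 difference was 0.70 ± 0.13 (SE), with an unadjusted p of 0.000348 and rank 3 among the genes tested, and an adjusted p of 0.999 from edgeR. The other 5 had differences of 0.45 ± 0.12 (mt-Co1) to 0.68 ± 0.13 (mt-Nd2), while mt-Nd6 had -0.07 ± 0.22. With no filter on low counts 5 of the genes were called, and with DESeq2 also 5. In the main edgeR fit, 489 of all 13868 genes tested had an unadjusted p under 0.05.

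Oligodendrocyte markers differed between the same libraries in the opposite direction. Their summed level was 4468 ± 1242 CPM in male KO and 7486 ± 2537 CPM in male WT dorsal hippocampus (SD, n = 3 each) with overlapping ranges, and 11 of 11 markers were at lower values in KO, 9 of them at an unadjusted p under 0.05 and 0 called. The nuclear respiratory chain genes leaned the other way from the mitochondrial ones, with 67 of 75 at lower values in KO (median -0.14) and 0 called. The part of cell composition in the mitochondrial difference was not tested. In the female dorsal hippocampus the shares were 5.63%, 5.43% and 4.13% in KO mice 4, 5 and 6 and 5.57%, 6.77% and 3.64% in WT mice 11, 23 and 24, and none of the 10 genes had ranges apart. Whether the sexes differed was tested as an interaction, in which mt-Nd5 was 0.86 ± 0.31 higher in males (unadjusted p 0.0162, adjusted p 0.9997, edgeR). In that test 5 of the 10 genes had an unadjusted p under 0.05, beside 193 of all 14485 genes tested.

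The ventral hippocampus had opposite directions in the sexes. Female KO mice had a share of 6.42% ± 1.33 and female WT mice 4.85% ± 0.738, while in males KO had 4.41% ± 1.19 and WT 5.84% ± 0.944 (SD, n = 3 each). The highest female library, KO mouse 6 at 7.88%, is the one with 4180 CPM of striatal markers. In the interaction test 6 of 7 genes had an unadjusted p under 0.05, beside 721 of all 10769 genes tested. The 6 were led by mt-Nd4 at -0.97 ± 0.34 (unadjusted p 0.0117, adjusted p 0.719, edgeR), and none was called. In amygdala, dorsal and ventral striatum, cortex and both hippocampal regions alike, 0% of all genes were called in the interaction by edgeR, and among the 10 genes 14 of 53 tests had an unadjusted p under 0.05. These 14 fell in 4 of the 6 regions, and tests of genes that rise and fall together are not separate observations. Over all genes tested, such counts ran from 193 of 14485 in dorsal hippocampus to 721 of 10769 in ventral hippocampus.

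Of the remaining comparisons, mt-Nd6 in the female dorsal striatum had the groups apart. It was 318.2, 306.8 and 306.3 CPM in KO mice 4, 5 and 6 and 243.3, 171.2 and 199.5 CPM in WT mice 11, 23 and 24. The log2 difference was 0.59 ± 0.15 (unadjusted p 0.00555, adjusted p 0.920, edgeR), and the library of WT mouse 23 is one of those with low striatal markers. In the male dorsal striatum mt-Nd6 overlapped, at 178.3, 177.8 and 95.1 CPM in KO and 261.3, 164.7 and 153.2 CPM in WT mice. In the female cortex it was 65.1, 76.9 and 83.6 CPM in the 3 KO libraries, against 33.6 and 58.7 CPM in the 2 from WT mice. That log2 difference was 0.69 ± 0.23 (adjusted p 0.332, edgeR). Without WT mouse 24, which leaves 1 WT library, 5 genes were called there. In the female amygdala 6 genes were above and 1 was below the range of the 2 WT libraries in all 3 KO libraries, none with an unadjusted p under 0.05. The abundant genes rise and fall together, so they are not separate observations. How many of all genes had groups apart in these comparisons was not counted. Of the 2 WT amygdala libraries, that of mouse 23 had 697 CPM of cortical markers.

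In prefrontal cortex all 7 genes had lower values in KO in the fit of both sexes. Of these, 6 had an unadjusted p under 0.05 (edgeR), beside 1029 of all 11894 genes tested. For mt-Nd5, female KO mice 4, 5 and 6 had 2303, 4313 and 3799 CPM and male KO mouse 1 had 2179 CPM. The WT libraries had 6336 (female 11), 3495 (labelled female 23), 3491 (male 3) and 4508 CPM (male 12), so the genotypes overlapped. The log2 difference was -0.64 ± 0.21 (adjusted p 0.326, edgeR). Markers of other cells moved with genotype here. Striatal markers were 712 to 2134 CPM in the female KO libraries, 1434 CPM in the male KO library and 234 to 397 CPM in the 4 WT libraries, and 5 of 9 were called higher in KO. Oligodendrocyte markers summed to 9239 ± 2428 CPM in 3 female KO and 2637 ± 1158 CPM in 2 female WT libraries, with 10 of 11 called higher in the female fit. Their part in the mitochondrial values was not tested. Without the filter on low counts 6 genes were called in both the fit of both sexes and the female fit, and without the library of mouse 23, which leaves 1 female WT library, 4 were called in females.

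Regions of a mouse are not replicates, so genotype and sex were also compared on counts summed per mouse over ventral striatum, dorsal striatum and dorsal hippocampus, which all 12 mice have. With KO against WT, 0 of the 10 genes were called beside 0.00594% of all genes, and the differences ran from -0.14 (mt-Co3) to 0.40 (mt-Atp6, the one gene with an unadjusted p under 0.05). With males against females 0 were called by edgeR beside 0.0535% of all genes. All 10 had lower values in males, by -0.25 ± 0.10 (mt-Co1) to -0.42 ± 0.20 (mt-Co2), and 6 had an unadjusted p under 0.05, with mt-Nd2 at -0.36 ± 0.11 (unadjusted p 0.00513, adjusted p 0.9999). Of all 16837 genes tested, 535 had an unadjusted p under 0.05 by edgeR. The mean share was lower in males than in females in each of the 7 regions, for example 4.04% ± 0.538 against 5.05% ± 0.364 in dorsal striatum (SD, n = 6 each), whose ranges overlapped at the edge. The regions share mice, so these are not 7 separate observations. Males and females were also deposited in separate tables, and sex and table cannot be told apart.

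Within a group the genes rose and fell together from library to library. For deviations from the group mean, the 15 pairs among the 6 most counted genes had Pearson r of 0.931 to 0.988 over the 47 deeper libraries and 0.941 to 0.991 over the 31 shallower ones. Counts of mt-Nd6 followed them less closely, with r of 0.683 to 0.770 and 0.805 to 0.883. These genes share each library's preparation and depth, and the values are descriptions. The within-group SD of the summed level was 0.29 on the log2 scale in the deeper set and 0.34 in the shallower set.

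Among 7898 other genes with a mean of at least 20 CPM in both sets, the ones most like the summed mitochondrial level over the 47 deeper libraries were the mitochondrial rRNA genes mt-Rnr2 (r 0.864, and 0.897 over the 31 shallower libraries) and mt-Rnr1 (0.861 and 0.861). Next came the paraoxonase gene Pon2 (0.803 and 0.638), Eogt (0.727 and 0.138) and Ankrd40 (0.718 and 0.634). The lowest values were those of the chaperone genes Hspa4 (-0.69 and -0.43) and Hsp90ab1 (-0.68 and -0.67), the kinesin gene Kif3b (-0.68 and -0.35), Wbp11 (-0.67 and -0.29) and Tspyl1 (-0.66 and -0.62). From 5% to 95% of genes spanned -0.42 to 0.51 in the deeper set and -0.50 to 0.51 in the shallower set. Of the 10 genes, Eogt, Hspa4, Kif3b and Wbp11 fell inside that span in the shallower set. Ranked by Spearman's rho instead, 4 of the 10 names stayed.

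Several of the gene lists leaned the same way as the mitochondrial genes in this measure. Of 70 respiratory chain genes 68 had a positive r in the deeper set (median 0.345) and 61 in the shallower set (median 0.312), beside medians of 0.025 and -0.021 over all genes. All 75 cytosolic ribosomal protein genes were positive in both sets (medians 0.441 and 0.506). So were all 7 astrocyte and all 7 microglia markers, with astrocyte medians of 0.469 and 0.512. Of 10 oligodendrocyte markers 10 were positive in the deeper set and 9 in the shallower set (medians 0.399 and 0.180). Of 8 nuclear-retained long RNAs 7 were positive in each set (medians 0.495 and 0.179). The 4 endothelial markers had medians of 0.595 and 0.188, with 4 and 2 positive, and the 1 red blood cell marker had 0.420 and 0.447. General neuron markers had medians of -0.15 in both sets, with 2 of 6 positive in the deeper and 1 of 6 in the shallower set.

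The same relation was fitted per region, with sex and genotype as terms and the log2 ratio of the summed counts to all other counts as the tested slope. In ventral striatum 7 genes were called, 0.0496% of those tested, all falling as the mitochondrial level rose. The malic enzyme gene Me2 had a slope of -1.73 ± 0.16 (adjusted p 0.00582), Srgap1 of -1.40 ± 0.19 and Scrn1 of -0.77 ± 0.11 (adjusted p 0.0480 each, edgeR). In cortex 2 genes were called, 0.0189%, and they were mt-Rnr2 (slope 0.88 ± 0.14) and mt-Rnr1 (0.89 ± 0.14, adjusted p 0.0161 each, edgeR). In the other 4 regions fitted, 0% were called by edgeR. Unadjusted p-values under 0.05 numbered 1139 genes in amygdala, 1793 in dorsal hippocampus, 843 in ventral hippocampus and 3063 in dorsal striatum. The dorsal striatum count turned on single mice, with 1150 genes called without mouse 23 and 942 without mouse 24, and 1074 with the DESeq2 test. The ventral striatum count was 37 without mouse 13 and 0 without mouse 23 or mouse 24, and the cortex calls were lost without any of mice 3, 5, 6, 11 and 24.

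As a last view, the first principal component of within-group deviations was computed over all other genes, region by region. The direction of a component is arbitrary, and it was set so that r over all libraries of a region is positive. The sign of that r therefore carries no information, and only a change of sign without some libraries can be read. In dorsal striatum this component held 65.0% of the variance and followed the mitochondrial level with Pearson r 0.741 over 12 libraries (Spearman's rho 0.706). It was 0.697 without the 2 libraries whose value on the component lay farthest from the component's median. In dorsal hippocampus r was 0.637 with all 12 libraries and -0.37 without the 2 farthest, so that relation rested on them. In ventral striatum r was 0.477, and 0.186 without the 2 farthest. The sign turned in amygdala (0.283 to -0.56), cortex (0.141 to -0.23) and ventral hippocampus (0.314 to -0.26). In prefrontal cortex r was 0.102 over 8 libraries and 0.914 without the 2 farthest. Outside dorsal striatum the value thus rested on those libraries. The 2 dorsal striatum libraries with low striatal markers are part of that component, and these correlations are descriptions without a test.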

How the data were processed

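The 78 libraries are poly(A)-selected RNA of 12 mice, taken in 7 brain regions. The deposited values are raw counts of reads per gene, made by the authors, in 1 table for males and 1 for females with the same 55367 symbols, and 0 columns were left unmapped. STAR 2.5.2a, SAMtools 1.1, HTSeq 0.6.1, DESeq2 and R 4.0.2 and the build GRCm38 (mm10) are named in the submitters' processing notes. The annotation, strand setting, filters and the treatment of reads with several placements are not given in the sources used here. Poly(A) selection and a kit that keeps no strand are given per the labels' protocols.

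Counts were tested with edgeR 4.0.16 (quasi-likelihood test, TMM scaling, filterByExpr with a minimum of 10 counts and a total of 15) in R 4.3.3, with Benjamini-Hochberg adjustment over all genes and a threshold of 0.05. KO and WT were compared per region within each sex and with sex as a term, and regions within their set with sex and genotype as terms. CPM values use total counts. The correlations between genes, the likeness with its minimum CPM and the first component instead used counts outside the 10 genes. The mitochondrial level they were set against has that same denominator. The floor covers counting error only. Values after ± are SDs over libraries for levels, shares and ratios, and SEs of the fit for log2 differences and slopes. Replicates are different mice. Libraries of the same mouse number come from 1 mouse, and their deviations in mitochondrial level had the same sign in 106 of 216 pairs (49.1%). Alternatives were no filter, DESeq2 1.42.0 (size factors, Wald test), scaling without the 10 genes, the mouse as a block, mt-Co1 as the level, other likeness settings and leaving out each mouse. Leaving out libraries whose striatal markers go against the label, with a limit of 1000 CPM, was chosen after seeing the data. The fitting code was tested on simulated data.

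All 10 genes were named where 1 was under the threshold, and otherwise given by count and range with the smallest p. For likeness, the 5 highest and 5 lowest Pearson r of log2(CPM + 1) deviations among genes with a mean of at least 20 CPM were named, and for the fitted association the 3 smallest p in each direction under the threshold with the same minimum. The 10 genes, gene lists and tests were chosen with earlier results of these data known. Sequences were searched in GENCODE M21 transcripts only.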

Additional observations from a re-analysis of the deposited data

Results flagged for a closer look

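Within each region and genotype, the highest or lowest library was compared with the nearest other one, over groups of 4 to 6 libraries. In 8 of 154 groups 1 library stood apart, where chance gives about 1 in 20. The levels of mt-Co2, mt-Co3 and mt-Atp6 were all highest in the WT dorsal hippocampus library of female mouse 23, at 4.961, 2.79 and 3.256 CPM beside 1.975, 1.282 and 1.59 CPM in the next library. In KO dorsal hippocampus the library of female mouse 6 was lowest for mt-Nd1 (5496 CPM, next 7305 CPM) and for mt-Nd4 (3502 CPM, next 4418 CPM). The level of mt-Co2 was lowest in the WT amygdala library of male mouse 13, at 1.046 CPM beside 2.018 CPM. It was also lowest in the KO dorsal striatum library of male mouse 10, which has low striatal markers, at 1.251 CPM beside 2.052 CPM. The level of mt-Co3 was highest in the WT ventral hippocampus library of male mouse 12, at 3.644 CPM beside 0.993 CPM, and rests on a few counts.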

How the results depend on the processing

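No log2 difference reported as called changed direction under the alternatives run. The correlation with the first component turned sign without its 2 farthest libraries in amygdala, both hippocampal regions and cortex. Outside the left-out mice, 191 counts of calls or shares stayed near the value reported and 19 did not. With no filter on low counts, 5 of the 10 genes were called in the male dorsal hippocampus, 6 in prefrontal cortex with both sexes, 6 in the female prefrontal cortex and 1 in the ventral hippocampus interaction. The genes associated with the mitochondrial level then numbered 329 in dorsal hippocampus, 1075 in dorsal striatum, 155 in ventral striatum, 16 in cortex and 118 in ventral hippocampus. With the DESeq2 Wald test, 5 of the 10 genes were called in the male dorsal hippocampus, and the associated genes numbered 12 in amygdala, 51 in dorsal hippocampus, 1074 in dorsal striatum, 377 in ventral striatum and 11 in ventral hippocampus. In ventral striatum they numbered 22 with DESeq2 size factors, 22 with mt-Co1 as the level and 37 without the libraries whose striatal markers go against the label. By Spearman's rho 4 of the 10 most and least alike genes stayed. The cause of these changes was not tested.

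Leaving out 1 mouse at a time, the associated genes ranged from 0 to 1 in amygdala (1 without mouse 10), 0 to 1150 in dorsal striatum, 0 to 37 in ventral striatum and 0 to 3 in cortex. The 10 genes had 0 to 5 calls in the female cortex, 0 to 4 in the female prefrontal cortex, 2 to 5 in amygdala and 3 to 6 in cortex against the other regions. Where a left-out mouse leaves 1 library in a group, that library is assumed to vary like the others.

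With the mouse number as a replicate block, the region comparisons called 5 genes in amygdala, 6 in dorsal hippocampus, 2 in dorsal striatum, 1 in ventral striatum, 5 in cortex, 7 in ventral hippocampus and 7 in prefrontal cortex. The one gene that lost its call under the block was mt-Nd5 in cortex (0.35). Without the striatal-marker libraries mt-Co1 lost its call in amygdala (-0.25), dorsal hippocampus (0.22) and ventral hippocampus (0.30). In the shallower set mt-Co2, mt-Co3 and mt-Atp6 stayed under the floor of 3 counts in many libraries and were not tested.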
